A study of Mus musculus with 42 samples.

Results

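A set of 8 imprinted RNAs was followed through RNA immunoprecipitation of the silencing adaptor Tnrc6a in mouse embryonic stem cells: H19, Igf2, Meg3, Rian, Mirg, Dlk1, Peg3 and Peg10. They were chosen by gene symbol, and the choice was made with results of these data in view, because H19 had been seen to be strongly recovered with the tag. Of the 8 symbols, 7 had 1 row each among the 18825 genes of the experiment 1 table and the 19866 genes of the experiment 2 table; no row carried the symbol Rian, which is not analysed further here. All 7 passed the filter on low counts in both experiments. The values that chose the members were the IP over input ratios of tagged against untagged cells, so that contrast is described without a test.

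The study pulled an HA-AVI-tagged Tnrc6a out of cell lysates with anti-HA magnetic beads and sequenced total RNA from the lysate (input) and from the beads (IP). Every line derived from 129S6/SvEvTac mES cells that carried the yGlob [GFP_5xT71BS] reporter and a stable FLAG-Cas9::T2A::Blasticidin transgene, grown on gelatin with serum and LIF. The untagged line had no HA tag. The tagged line carried HA-AVI-Tnrc6a, the line labelled Trim71KO carried the tag and lacked Trim71, and the line labelled Ago2KO carried the tag and lacked Ago2. Experiment 1 held untagged, tagged and Trim71KO cells and experiment 2 held the same 3 genotypes and Ago2KO, with 3 input and 3 IP libraries per genotype and 42 libraries in all. The labels describe dishes grown in triplicate and do not say that replicates came from separate clones, so p-values measure the spread between these dishes.

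Total counts ran from 12587257 to 23657840 per library in experiment 1 and from 16296447 to 21026552 in experiment 2. Tnrc6a rose from 78.1 ± 19.3 CPM (counts scaled to library size by TMM; SD, n = 3) in tagged input to 22951 ± 5649 in tagged IP of experiment 1, and was 92.4 ± 2.48 in untagged IP. Ago2 RNA in input was 353 ± 34.9 CPM in tagged and 162 ± 4.76 CPM in Ago2KO cells. Trim71 RNA in input was not lower under the Trim71KO label (282 ± 3.18 against 241 ± 21.2 CPM in experiment 1, and 377 ± 9.61 against 282 ± 23.5 in experiment 2). Which part of Trim71 was altered is not given, so whole-gene counts do not check that label, and "Trim71KO" below means the libraries labelled so. All 10 embryonic stem cell markers had a row, and their summed input level lay between 6881 and 9430 CPM in every group. The lowest correlations between replicates were 0.971 (Trim71KO IP replicates 1 and 3) and 0.978 (tagged input replicates 1 and 2), both in experiment 1, and values without each of these libraries are among those left out in turn below.

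Imprinted genes are expressed from the copy inherited from one parent. H19 and Igf2 share a domain: H19 is a maternally expressed long noncoding RNA and the host of a microRNA, and Igf2 encodes a paternally expressed fetal growth factor. Dlk1, Meg3, Rian and Mirg lie in another such domain, in which Dlk1 encodes a paternally expressed transmembrane protein related to Notch ligands and the other three are maternally expressed noncoding RNAs that host microRNAs and small nucleolar RNAs. Peg3, a zinc finger protein, and Peg10, a protein derived from a retrotransposon, are paternally expressed from their own domains. Tnrc6 proteins (GW182) bind Argonaute proteins and recruit deadenylases to target mRNAs. Ago2 is among the Argonaute proteins that microRNAs guide to targets, and Trim71 is an RNA-binding protein that represses mRNAs in early development.

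In the RefSeq annotation of GRCm38.p6, H19 lies at chr7:142575530-142578146 and Igf2 at chr7:142650768-142666816, with Igf2os, an antisense RNA, at chr7:142659680-142670356 across part of it. Dlk1 lies at chr12:109452485-109463336, Meg3 at chr12:109540996-109571729 and Mirg at chr12:109734981-109749458. Peg3 is at chr7:6703892-6730462 and Peg10 at chr6:4747306-4760517. All 8 symbols matched a RefSeq gene. In the RefSeq table of microRNA sequences, hairpins inside these spans (on the gene's strand where it was given) numbered 1 in the span of H19, 1 in Igf2, 1 in Meg3 and 10 in Mirg, and none in those of Dlk1, Peg3 and Peg10. Meg3 also spans Mir1906-1 (chr12:109544541-109544620), of which that table holds the mature sequence alone. The sequences that matter most here are those of H19, the RNA recovered best, whose hairpin (chr7:142577064-142577147, minus strand) is printed first with both mature arms in capitals; in the mature microRNAs the capitals mark the seed, bases 2 to 8.
Mir675 hairpin: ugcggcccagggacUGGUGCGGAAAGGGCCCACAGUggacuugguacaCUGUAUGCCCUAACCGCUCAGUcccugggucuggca
mmu-miR-675-5p: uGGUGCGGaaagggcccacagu
mmu-miR-675-3p: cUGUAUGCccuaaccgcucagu
mmu-miR-483-5p (Igf2): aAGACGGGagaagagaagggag
mmu-miR-483-3p (Igf2): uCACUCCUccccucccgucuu
mmu-miR-770-5p (Meg3): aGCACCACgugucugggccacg
mmu-miR-453 (Mirg): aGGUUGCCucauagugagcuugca
mmu-miR-496a-5p (Mirg): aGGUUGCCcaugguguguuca
The last pair is shown because miR-453 and miR-496a-5p share the seed GGUUGCC, the only seed held by 2 of the mature sequences from these spans. None of the H19, Igf2 or Meg3 microRNAs shares a seed with another of them. The values below are counts over the host transcripts in total RNA, not over mature microRNAs.

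H19 was the member most strongly recovered with tagged Tnrc6a. In experiment 1 its 3 untagged IP libraries held 2.74, 1.48 and 2.95 CPM and its tagged IP libraries 76.4, 52.7 and 71.2 CPM. Tagged input held 3.51, 4.47 and 4.35 CPM. Every tagged IP library thus lay far above every input and untagged library, with no overlap. IP over input was 0.789 in untagged and 16.2 in tagged cells, a log2 difference of 4.36 (SE 0.26). This ratio divides the IP CPM by the input CPM as fitted over 3 libraries of each.

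The order was the same in experiment 2, with a smaller difference. Untagged IP held 6.35, 5.48 and 7.04 CPM of H19 and tagged IP 124, 90.8 and 76.8 CPM, against 11.3, 12.1 and 13.5 CPM in tagged input. The IP over input ratio was 0.902 in untagged and 7.90 in tagged cells, a log2 difference of 3.13 (SE 0.28). H19 input itself was higher in tagged than in untagged cells of experiment 2 (6.56, 6.33 and 7.98 CPM in untagged), by 0.82 on the log2 scale (SE 0.20, edgeR adjusted p 0.0363). Of all genes, 1.39% were called in that comparison, and H19 was the only member among the 7. That call did not hold when any 1 of the 6 input libraries was left out, with adjusted p between 0.0576 and 0.173.

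**Figure D1:**
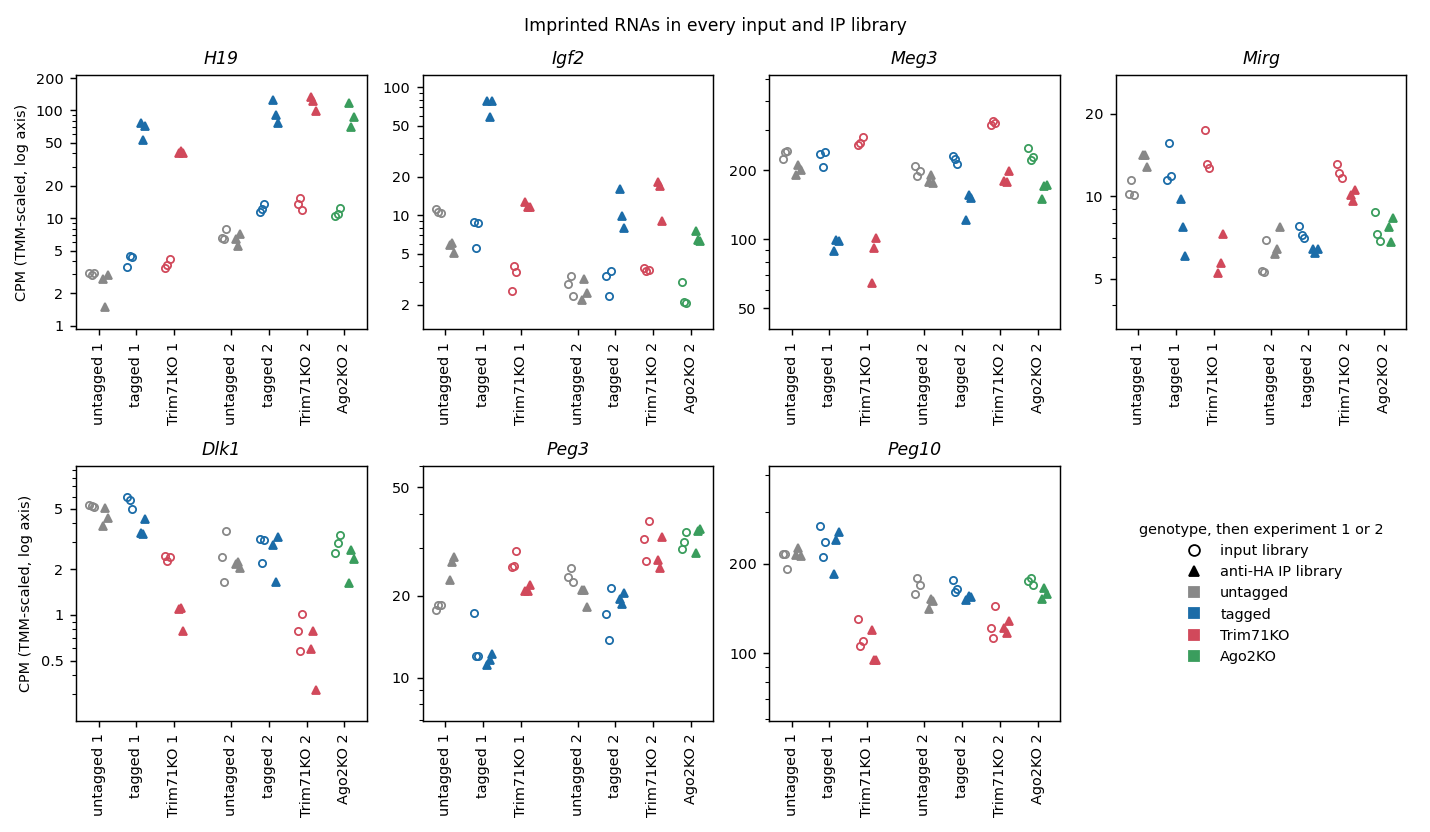
CPM (log axis, TMM-scaled) of the 7 RNAs in each library, open circles for input and filled triangles for IP, by genotype and experiment. H19 and Igf2 IP triangles of the lines that carry the tag lie above their input circles, while those of Meg3 lie below.

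Igf2 was the other member recovered with the tag. Tagged IP libraries of experiment 1 held 78.4, 58.3 and 78.8 CPM against 8.80, 5.51 and 8.64 CPM in tagged input and 5.84, 6.06 and 5.10 CPM in untagged IP. Tagged IP stood 9.39-fold over input where untagged IP stood at 0.527 of input, a log2 difference of 4.16 (SE 0.23). In experiment 2 tagged IP held 16.1, 9.84 and 7.92 CPM against 3.36, 2.35 and 3.63 CPM in tagged input. The ratio was 3.59 in tagged and 0.907 in untagged cells, a log2 difference of 1.98 (SE 0.39). In both experiments every tagged IP library lay above every tagged input and untagged library. The margin in experiment 2 was narrower, with the lowest tagged IP library at 7.92 CPM and the highest tagged input library at 3.63 CPM.

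Meg3 and Mirg, the noncoding RNAs of the Dlk1 domain with a row, had tagged IP over input ratios under those of untagged cells. Meg3 held 89.3, 99.1 and 98.7 CPM in tagged IP of experiment 1 against 235, 207 and 240 CPM in tagged input, and 191, 210 and 200 CPM in untagged IP. It held 122, 157 and 151 CPM in tagged IP of experiment 2 against 230, 224 and 214 CPM in tagged input. Tagged IP was therefore below input in all libraries, at 0.421 and 0.643 of it, while untagged IP was at 0.850 and 0.914 of input. The log2 differences were -1.01 (SE 0.16) and -0.51 (SE 0.11). Mirg, the host of the 10 hairpins, had ratios of 0.604 and 0.862 in tagged cells and of 1.29 and 1.16 in untagged cells, with log2 differences of -1.10 (SE 0.24) and -0.43 (SE 0.18).

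For the protein-coding RNAs Dlk1, Peg3 and Peg10 the tagged IP over input ratio lay between 0.668 and 1.12 in both experiments. The log2 differences from untagged cells were -0.36 (SE 0.24) and 0.12 (SE 0.38) for Dlk1, -0.73 (SE 0.18) and 0.40 (SE 0.19) for Peg3, and -0.14 (SE 0.17) and 0.07 (SE 0.10) for Peg10. With library size alone in place of TMM scaling, the experiment 2 values of Dlk1 and Peg10 turned to -0.08 and -0.14. Across all genes 56.9% in experiment 1 and 27.7% in experiment 2 passed an adjusted p of 0.05 in this contrast; among the members 5 and 3 did, and nothing is read from these counts because the rule used the contrast.

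**Figure D2:**
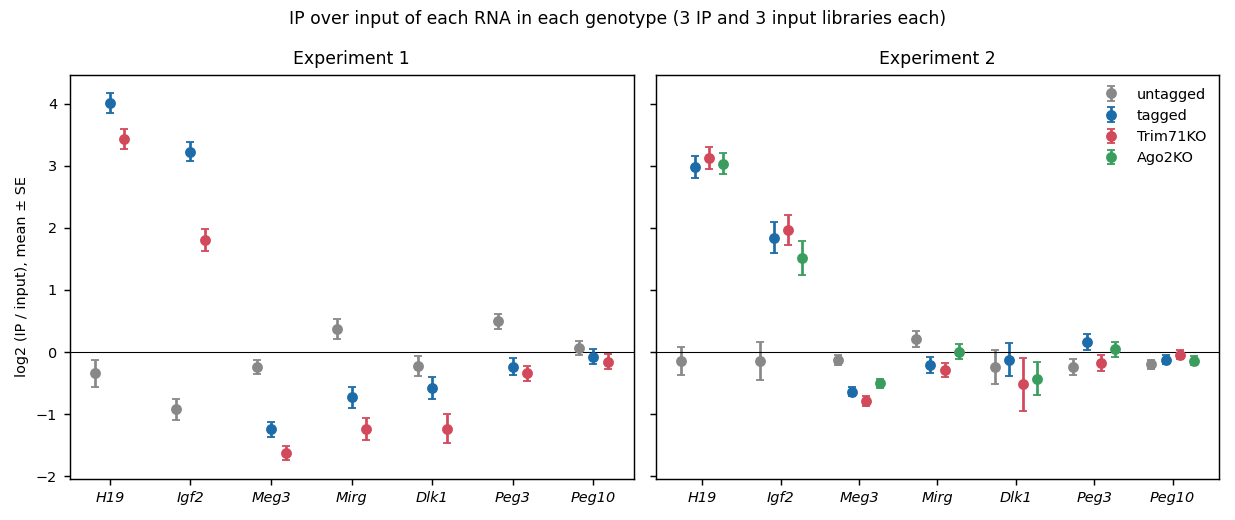
Log2 of IP over input (vertical axis) for the 7 RNAs in each genotype of experiment 1 (left) and experiment 2 (right). Points are fitted means from 3 IP and 3 input libraries. Bars are standard errors from the edgeR fit over all groups of the experiment, not the spread of those libraries alone. In tagged cells H19 stood at 4.02 and 2.98 and Igf2 at 3.23 and 1.84, above the other 5 members.

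Rows of the tables that lie inside H19 and Meg3, picked for their position, were set beside them. The Mir675 row, 84 bases long and inside H19, held 0 to 1 counts in each untagged library of both experiments. Tagged IP libraries held 11, 10 and 15 counts in experiment 1 and 38, 29 and 19 in experiment 2, against 0 to 4 counts in tagged input. Under Trim71KO the IP held 8, 11 and 17 counts and then 26, 30 and 20, and under Ago2KO 32, 17 and 23. Trim71KO input held 5, 10 and 1 counts and then 6, 3 and 5, and Ago2KO input 3, 3 and 5. The Mir675 row was thus high in the same IP libraries as H19. In IP of experiment 1 it stood at 0.923 ± 0.210 CPM in tagged and 0.904 ± 0.366 CPM in Trim71KO cells (SD, n = 3), where H19 went from 66.8 to 40.9 CPM. In input it stood at 0.0587 ± 0.0574 and 0.258 ± 0.200 CPM, where H19 was at 4.11 and 3.76 CPM. Of the 16 Mir675 counts in Trim71KO input, 10 came from 1 library. Tagged IP of experiment 1 held 36 counts for Mir675 and 2609 for H19. At so few counts this is a description, and whether Mir675 followed H19 cannot be decided. The Mir1906-1 row, 80 bases long and inside Meg3, held 3, 7 and 5 counts in tagged IP and 17, 8 and 10 in tagged input of experiment 1, and 12, 12 and 7 against 22, 14 and 16 in experiment 2. Whether a read in these intervals was counted for both the microRNA and its host is not given in the sources used here.

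Genes whose libraries were most like H19 were sought among 11374 genes with a unique symbol and a mean log2 CPM of at least 2 in both experiments, by Pearson correlation of log2 CPM over the 18 libraries of experiment 1 and the 24 of experiment 2. Skida1 was first (0.991 and 0.990), Tfb2m second (0.986 and 0.988) and Spop came next (0.989 and 0.985). The correlations are taken over libraries of all groups, input and IP with and without the tag, so differences between those groups enter them. The tag-specific log2 differences were 4.99 and 3.27 for Skida1, 4.21 and 3.01 for Tfb2m, and 2.99 and 1.77 for Spop, given as a description. Igf2 had correlations of 0.787 and 0.917 with H19 and rank 2257.

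Whether recovery with Tnrc6a depended on Trim71 was addressed by comparing IP over input in Trim71KO and tagged cells, both of which carry the tag. Igf2 was the member that lost recovery, and it did so in experiment 1. Its IP libraries held 12.6, 11.7 and 11.6 CPM under Trim71KO, below the 58.3 to 78.8 CPM of tagged IP without overlap. Its input libraries held 2.55, 4.01 and 3.59 CPM, also below the 5.51 to 8.80 CPM of tagged input. IP over input went from 9.39 to 3.49, a log2 change of -1.43 (SE 0.24, 95% interval -1.95 to -0.91, edgeR adjusted p 0.000487) or 2.69-fold lower. Among all genes 3.74% were called in this comparison, and 1 of the 7 members was. The Trim71-dependent contrast uses the same tagged libraries as the contrast that chose the members.

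The Igf2os row, which lies antisense across Igf2, moved in the same libraries. Over the 3 libraries of a group it held 97 counts in tagged IP of experiment 1 (22 to 41 per library), 23 in tagged input (2 to 16), 2 in Trim71KO IP (0 to 1) and 2 in Trim71KO input (0 to 1). Experiment 2 had no row with the symbol Igf2os, so this pair could not be followed there. The kit marks strand, but whether counting used it is not given, so reads of Igf2 and Igf2os cannot be told apart with certainty.

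H19 did not change beyond the threshold. Under Trim71KO its IP libraries of experiment 1 held 40.1, 41.9 and 40.6 CPM, below all 3 tagged IP libraries, and its input 3.42, 3.70 and 4.16 CPM, overlapping tagged input. The ratio was 10.8 against 16.2, a log2 change of -0.58 (SE 0.23, 95% interval -1.08 to -0.09, edgeR adjusted p 0.196). Dlk1 (-0.65, SE 0.29), Mirg (-0.51, SE 0.25) and Meg3 (-0.38, SE 0.16) had adjusted p between 0.242 and 0.334. The unadjusted p of the edgeR fit was under 0.05 for Igf2 (3.84e-06), H19 (0.0167), Meg3 (0.0254), Dlk1 (0.0341) and Mirg (0.0499). It was not for Peg3 and Peg10. Peg3 and Peg10 were at -0.11 and -0.08. All 7 values were below 0, with a median of -0.51 beside a median of -0.04 over all genes tested. Loss was the common direction of all genes called in this comparison, with 652 lower and 51 higher. The share of all genes at an unadjusted p under 0.05 is not given here, so nothing is read from the members that reached it. With library size alone Peg3 and Peg10 turned to 0.0010 and 0.027. With a library left out they changed sign in 3 and 6 of 12 refits.

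In experiment 2 no member was called as dependent on Trim71, where 1.49% of all genes were (295 genes; 470 with the replicate number as a block, under which still no member was called). H19 held 135, 123 and 98.5 CPM in Trim71KO IP, overlapping the 76.8 to 124 CPM of tagged IP. Its ratio was 8.75 against 7.90, a log2 change of 0.15 (SE 0.24, 95% interval -0.36 to 0.65, edgeR adjusted p 0.842). Igf2 held 18.1, 17.0 and 9.0 CPM in Trim71KO IP, overlapping the 7.92 to 16.1 CPM of tagged IP. Its log2 change was 0.12 (SE 0.35, 95% interval -0.63 to 0.87, edgeR adjusted p 0.920). The experiment 1 value of -1.43 had an interval of -1.95 to -0.91, and the test of the difference is given below. At an unadjusted p under 0.05 the count of members was also 0, and DESeq2 called 0.

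The difference between the experiments was tested in a joint fit, added after the data were seen. It covered the 18620 genes present in both experiments that passed the filter on low counts over all 42 libraries. For Igf2 the Trim71-dependent change was lower in experiment 1 by 1.56 on the log2 scale (-1.56, SE 0.46), and this did not pass the threshold (edgeR adjusted p 0.125). For H19 the difference was -0.74 (SE 0.37, edgeR adjusted p 0.349). No member was called, where 0.0967% of genes were. The 5 other members differed by -0.44 to 0.22.

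Ago2 loss was examined in experiment 2 alone. H19 held 118, 70.6 and 87.0 CPM in Ago2KO IP, within the range of tagged IP but for the lowest library. Its input held 10.4, 10.9 and 12.3 CPM. The ratio was 8.21 against 7.90 in tagged cells, a log2 change of 0.05 (SE 0.24, 95% interval -0.46 to 0.57, edgeR adjusted p 0.968). Igf2 held 7.50, 6.4 and 6.28 CPM in Ago2KO IP, below the 3 tagged IP libraries. Its input held 3.01, 2.08 and 2.04 CPM, and its ratio was 2.85 against 3.59. The log2 change of -0.33 (SE 0.38, 95% interval -1.13 to 0.47) was not past the threshold (edgeR adjusted p 0.817). None of the 7 members was called and 4.16% of all genes were; at an unadjusted p under 0.05 and by DESeq2 the count of members was 0 as well.

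Set directly against each other, Trim71KO and Ago2KO enrichment did not differ past the threshold for any member, where 11.8% of all genes were called. Meg3 came closest, at -0.29 (SE 0.11, edgeR adjusted p 0.0906), and was called by DESeq2 and with a replicate block within fraction. It was also the 1 member with an unadjusted p under 0.05 (p 0.0141 from the edgeR fit). H19 differed by 0.09 (SE 0.24) and Igf2 by 0.45 (SE 0.37), with 95% intervals of -0.42 to 0.60 and -0.33 to 1.24.

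IP against input within the knockout lines uses libraries outside the tagged against untagged contrast that chose H19. These lines carry the same tag and earlier results of these data were known, so high H19 in IP here is no independent support. H19 was 10.8-fold over input in Trim71KO cells of experiment 1, 8.75-fold in those of experiment 2 and 8.21-fold in Ago2KO cells, with log2 values of 3.43, 3.13 and 3.04 (SE 0.16, 0.17 and 0.17). Igf2 stood at 1.80, 1.97 and 1.51 (SE 0.18, 0.24 and 0.27). Both were called in all 3 comparisons, those of the Trim71KO libraries of each experiment and of the Ago2KO libraries, and in each their IP libraries lay above all input libraries. Meg3 was below input in all 3, at -1.63, -0.79 and -0.50. Mirg was below input in the Trim71KO libraries of both experiments (-1.24 and -0.29) and close to input in Ago2KO cells, at 0.004 (SE 0.12). The experiment 2 value of Mirg lost its call without Trim71KO input replicate 1 or 2 or IP replicate 2. Dlk1 (-1.24) and Peg3 (-0.34) were lower in IP in experiment 1, and Peg3 lost its call without any 1 of the 6 libraries. Calls covered 65.2% of all genes in Trim71KO cells of experiment 1, 49.2% in those of experiment 2 and 28.2% in Ago2KO cells, against 6, 4 and 3 of the 7 members. With library size alone in place of TMM scaling these were 7, 6 and 4 members, as Peg10 was called lower in IP in each and Peg3 in experiment 2.

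**Figure D3:**
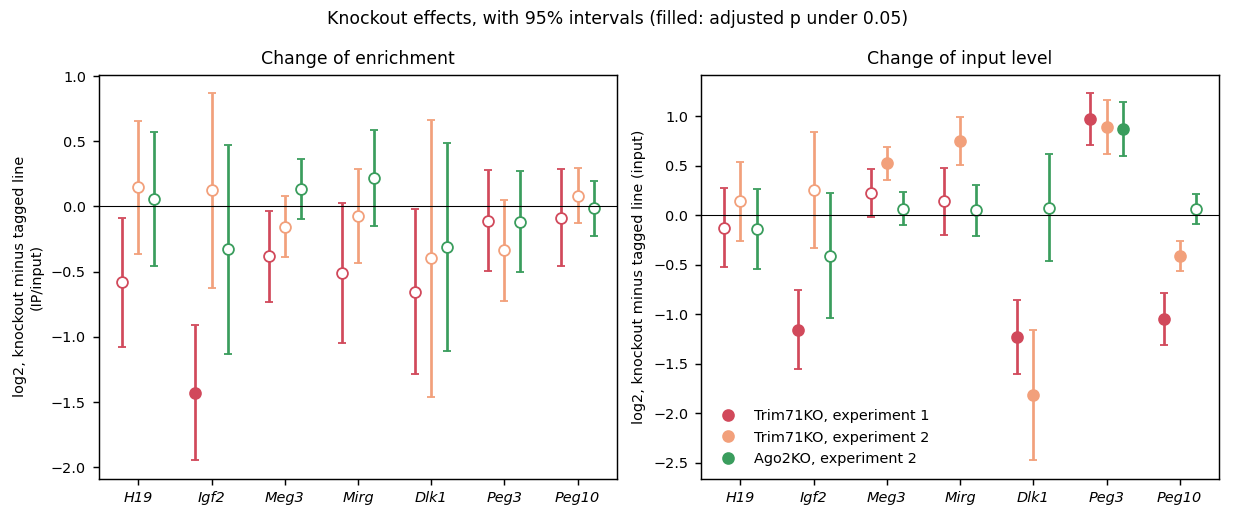
Change of enrichment (left; log2 of IP over input, knockout minus tagged line) and of input level (right; log2, knockout minus tagged line) for the 7 RNAs, with 95% intervals from the fit's standard error and residual degrees of freedom; filled points had an adjusted p under 0.05. The enrichment change of Igf2 in experiment 1 is the filled point on the left, at -1.43, while Dlk1, Peg3 and Peg10 have filled input changes in both Trim71KO comparisons.

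Input levels, the RNA content of the lysates, were compared between knockout and tagged cells. In Trim71KO input 4 of 7 members were called in experiment 1, where 34% of all genes were, and 5 of 7 in experiment 2, where 27.2% were. Lower counts of an RNA in bulk lysate can stand for fewer cells that express it or for less RNA per cell, which cannot be told apart here. Dlk1 was lower under Trim71KO in both experiments. Its input held 5.97, 5.68 and 4.94 CPM in tagged and 2.44, 2.25 and 2.39 CPM in Trim71KO cells of experiment 1, and 3.16, 2.19 and 3.10 against 0.786, 0.580 and 1.02 CPM in experiment 2. Neither pair of groups overlapped. Dlk1 fell by 1.23 (SE 0.17, edgeR adjusted p 8.78e-06) and by 1.82 (SE 0.31, edgeR adjusted p 6.91e-05) on the log2 scale, with 11 to 20 counts per library behind the lowest group.

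Peg10 was also lower under Trim71KO in both experiments, and Peg3 was higher. Peg10 input went from 211 to 268 CPM in tagged cells down to 106 to 130 CPM in experiment 1, and from 161 to 177 CPM down to 112 to 144 CPM in experiment 2, without overlap. It fell by 1.05 (SE 0.12, edgeR adjusted p 7.68e-07) and by 0.41 (SE 0.07, edgeR adjusted p 7.52e-05). Peg3 input held 17.2, 12.0 and 12.0 CPM in tagged and 25.6, 25.7 and 29.3 CPM in Trim71KO cells of experiment 1. Tagged libraries of experiment 2 held 17.2, 13.8 and 21.3 CPM of Peg3 and Trim71KO libraries 32.4, 26.8 and 37.5 CPM. The rises were 0.97 (SE 0.12, edgeR adjusted p 2.08e-06) and 0.89 (SE 0.13, edgeR adjusted p 7.6e-06). Tagged input of experiment 1 was itself lower in Peg3 than untagged input (17.8, 18.4 and 18.5 CPM) by 0.41 (-0.41, SE 0.12, edgeR adjusted p 0.0324). That call did not hold without any 1 untagged input library or without tagged input replicate 2 or 3, and 10.6% of all genes were called in that comparison.

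Meg3 and Mirg, noncoding hosts of microRNAs in the Dlk1 domain, were higher under Trim71KO in experiment 2. Meg3 input held 230, 224 and 214 CPM in tagged and 314, 326 and 321 CPM in Trim71KO cells, a rise of 0.52 (SE 0.08, edgeR adjusted p 9.17e-06). Mirg held 7.80, 7.20 and 7.02 against 13.1, 12.2 and 11.6 CPM, a rise of 0.75 (SE 0.12, edgeR adjusted p 1.78e-05). In experiment 1 the values were 0.23 (SE 0.11, edgeR adjusted p 0.120) and 0.14 (SE 0.16, edgeR adjusted p 0.525). Igf2 input fell by 1.16 in experiment 1 (SE 0.18, edgeR adjusted p 3.85e-05), and its experiment 2 value was 0.25 (SE 0.28, edgeR adjusted p 0.540). H19 input was at -0.12 (SE 0.18) and 0.14 (SE 0.19) and was called in neither.

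In Ago2KO input Peg3 was the 1 member called, with 29.6, 31.6 and 34.3 CPM against 13.8 to 21.3 CPM in tagged cells. Its rise of 0.87 (SE 0.13, edgeR adjusted p 6.23e-05) had the size of that under Trim71KO, and the 2 knockout inputs differed by 0.02 (95% interval -0.24 to 0.28). Of all genes 6.96% were called against tagged input. Between Trim71KO and Ago2KO input, a contrast added after the data were seen, 28.4% of genes and 4 of the 7 members were called. Igf2 was called as well, higher under Trim71KO by 0.66 to 0.68, with the replicate block within fraction, with DESeq2 and with only the groups compared (adjusted p 0.0348, 0.0459 and 0.0112, against 0.0897 in the edgeR fit, where it stood at 0.66, SE 0.29). Meg3 and Mirg were higher under Trim71KO by 0.46 (SE 0.08) and 0.70 (SE 0.11), and Dlk1 and Peg10 were lower, at -1.89 (SE 0.31) and -0.47 (SE 0.07), with edgeR adjusted p between 1.17e-05 and 5.36e-05. Tagged inputs enter both single comparisons, so the direct contrast is the one that bears on a difference between the knockouts.

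Markers of primitive endoderm, an extraembryonic cell type that forms beside embryonic stem cells in culture, were lower in Trim71KO input of both experiments, as were Dlk1 and Peg10. Igf2 input was lower beside them in experiment 1 but not called in experiment 2, at 0.25 (SE 0.28, edgeR adjusted p 0.540). In experiment 1, 8 of the 10 listed markers had a row and 7 were called lower under Trim71KO, beside 34% of all genes called. The summed marker level was 66.5 to 89.3 CPM in tagged and 12.9 to 15.4 CPM in Trim71KO input. In experiment 2 the sums were 22.9 to 25.3 CPM in tagged and 8.80 to 10.7 CPM in Trim71KO input. There, beside 27.2% of all genes called, 7 markers had a row and 6 were called lower. None was at 0 as a group mean in tagged input, and Gata6, a defining transcription factor, went from 10.7 to 0.415 CPM in experiment 1. In Ago2KO input the sum was also lower, at 10.1 to 11.5 CPM. There 4 of 7 markers were called lower, beside 6.96% of all genes called. Dlk1 was at 0.08 (SE 0.25) and Peg10 at 0.06 (SE 0.07) in that input, neither of them called. The part of this cell type in the changes of Dlk1, Igf2 and Peg10 was not tested. The fibroblast list, of which 3 of 8 genes had a row, summed to 24.4 to 26.8 CPM in tagged and 59.4 to 63.4 CPM in Trim71KO input of experiment 1, most of it Thy1 (55.8 CPM in Trim71KO input). In experiment 2 that sum was 36.1 to 38.4 CPM in tagged, 50.7 to 53.4 CPM in Trim71KO and 32.0 to 38.4 CPM in Ago2KO input. Thy1 alone made the higher sum of Trim71KO cells there (29.9 against 46.6 CPM), as Col1a1 went from 5.05 to 3.96 CPM and Twist1 from 2.40 to 1.20 CPM; 1 of the 3 genes was called higher and 1 lower, with a median of -0.35. The part of these genes in the input rises of Meg3, Mirg and Peg3 was not tested.

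Per unit of length, the members spanned a wide range. In tagged input of experiment 1 Peg10 stood highest at 35.8 ± 4.26 CPM per kb (SD, n = 3), followed by Meg3 at 12.6 ± 0.990. Mirg (1.78 ± 0.313), H19 (1.67 ± 0.214), Igf2 (1.34 ± 0.325), Peg3 (1.01 ± 0.223) and Dlk1 (0.977 ± 0.0938) followed, and each of these neighbours in the order overlapped the next. In tagged IP of the same experiment H19 stood at 27.1 ± 5.06 CPM per kb, overlapping Peg10 at 34.1 ± 5.58. In tagged IP of experiment 2 H19 was highest at 39.6 ± 9.93, above Peg10 at 23.1 ± 0.380 with no overlap, although its input level of 4.99 ± 0.454 was below those of Peg10 and Meg3. Igf2 input was 1.34 ± 0.325 CPM per kb in experiment 1 and 0.544 ± 0.118 in experiment 2; the tables were scaled separately, so this pair is a description.

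**Figure D4:**
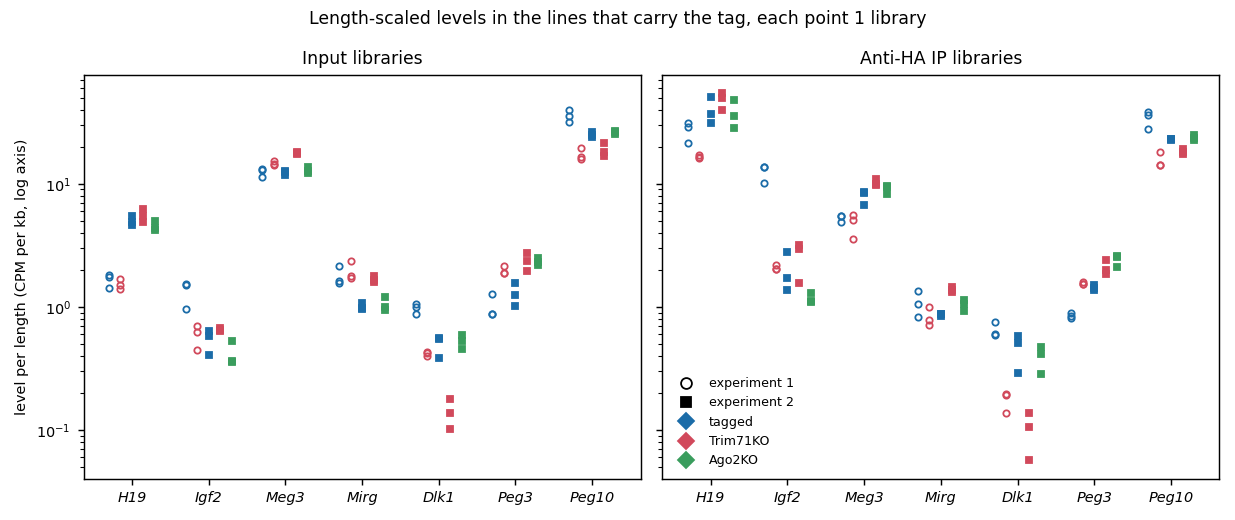
Levels per length (CPM per kb, log axis) of the 7 RNAs in input (left) and IP (right) libraries of the lines that carry the tag; open circles are experiment 1 and filled squares experiment 2. H19 lies between 1.39 and 6.20 in input and between 16.3 and 54.8 in IP.

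Recovery under Trim71KO was also compared for genes of the surrounding domains, on a list of 24 of which 17 and 19 had a row. Yy1, a zinc finger transcription factor encoded beside the Dlk1 domain, lost recovery in both experiments, at -0.997 (SE 0.13, edgeR adjusted p 1.69e-05) and -0.48 (SE 0.10, edgeR adjusted p 0.0129). Mrpl23, a mitochondrial ribosomal protein gene next to H19, was lower in experiment 2 at -0.68 (SE 0.12). These made 1 of 17 genes in experiment 1, where 3.74% of all genes were called, and 2 of 19 in experiment 2, where 1.49% were. The list medians were -0.20 and -0.09, and the rest were not called. Under Ago2KO, where 4.16% of all genes were called, 1 of 19 was lower. It was Pon2, a paraoxonase gene near Peg10, at -0.69 (SE 0.17, edgeR adjusted p 0.0177). Of 17 genes in Trim71KO input of experiment 1, 1 was higher and 3 lower, beside 34% of all genes called. Of 19 in experiment 2, 3 were higher and 2 lower, beside 27.2%. Dio3, a thyroid hormone deiodinase at the far end of the Dlk1 domain, was higher in both (1.87, SE 0.37, and 1.09, SE 0.32). Rtl1, a retrotransposon-derived gene of that domain, was higher in experiment 2 (1.23, SE 0.31). Pon2 was lower in both (-1.34, SE 0.19, and -0.81, SE 0.14).

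Imprinted genes of other domains, 34 on the list with 27 and 28 tested, had no call in the Trim71-dependent or Ago2-dependent comparisons of recovery by edgeR or DESeq2. Of all genes, edgeR called 3.74% and 1.49% for Trim71 in experiments 1 and 2 and 4.16% for Ago2. In a list of this size, no call is close to those shares. An unadjusted p under 0.05 from the edgeR fit was reached by 2 and 6 of the listed genes for Trim71 in experiments 1 and 2 and by 3 for Ago2. The share of all genes at that cut-off is not given here. In Trim71KO input 6 of 27 were higher and 7 lower in experiment 1, where 34% of all genes were called, and 5 of 28 were higher and 5 lower in experiment 2, where 27.2% were. Mest, a hydrolase gene, was higher in both (0.82, SE 0.09, and 1.00, SE 0.07) and Ascl2, a transcription factor of the trophoblast, lower in both (-0.94, SE 0.24, and -0.76, SE 0.14). Grb10, a growth factor receptor adaptor, was lower under Trim71KO in experiment 2 (-1.05, SE 0.07) and higher under Ago2KO (0.52, SE 0.06). Recovery with the tag was highest for Mkrn3 among these, at 2.7 (SE 0.19) and 2.41 (SE 0.24), given as a description.

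The IGF pathway list held 14 genes, receptors, binding proteins and the Igf2 mRNA-binding proteins, of which 11 were tested. None was called for recovery under Trim71KO in either experiment by edgeR or DESeq2, with 1 and 0 at an unadjusted p under 0.05. Of all genes, edgeR called 3.74% and 1.49% there. Under Ago2KO 1 was lower, Igf2bp3, an mRNA-binding protein gene, at -0.43 (SE 0.09, edgeR adjusted p 0.00363). Beside it 4.16% of all genes were called, 746 of those 822 genes lower. In Trim71KO input 5 of 11 were higher and 1 lower in experiment 1, beside 34% of all genes called, and 2 were higher and 1 lower in experiment 2, beside 27.2%. The lower one was Igfbp3, an IGF-binding protein, in both, at -0.97 (SE 0.19) and -0.77 (SE 0.12). Tag-specific values were 2.00 (SE 0.16) and 1.28 (SE 0.14) for Igf2bp1, as a description.

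Other microRNA host RNAs were set beside H19, Meg3 and Mirg. Of 10 on the list 5 had a row. In the tag-specific contrast, given as a description with no test, their medians were -1.18 and -0.29 in experiments 1 and 2, beside -0.10 and -0.03 over all genes tested. Dleu2 stood at -1.66 (SE 0.22) in experiment 1 and AU018091 at -0.52 (SE 0.14) in experiment 2. Of the members, Meg3 was at -1.01 and -0.51, Mirg at -1.10 and -0.43, and H19 at 4.36 and 3.13. No host RNA of the list was called in the Trim71-dependent or Ago2-dependent comparisons by edgeR or DESeq2. Of all genes, edgeR called 3.74% and 1.49% for Trim71 in experiments 1 and 2 and 4.16% for Ago2. With 5 genes tested, no call is close to those shares, which also stand beside the recovery counts of the next lists. For Trim71, 2 host RNAs in experiment 1 and 0 in experiment 2 had an unadjusted p under 0.05. The share of all genes at that cut-off is not given here. Of the genes that maintain imprints, 9 and 10 were tested and edgeR called none in these comparisons of recovery. At an unadjusted p under 0.05 from the edgeR fit there were 3 and 0 for Trim71 and 1 for Ago2. DESeq2 called 1 higher for Trim71 in experiment 1. In Trim71KO input 2 of 9 were higher and 0 lower in experiment 1, beside 34% of all genes called. In experiment 2, 2 of 10 were higher and 2 lower, beside 27.2%. Dppa3, a protector of maternal methylation, was among those lower in experiment 2 (-1.48, SE 0.40). The Notch list, set beside Dlk1, had 11 genes tested, none of them called for recovery by edgeR or DESeq2 and none at an unadjusted p under 0.05. In Trim71KO input 4 of these 11 were higher and 1 lower in experiment 1, beside 34% of all genes called. In experiment 2, 3 were higher and 2 lower, beside 27.2%. Among the higher ones, Notch1, a receptor, was called in both experiments (1.14, SE 0.15, and 0.56, SE 0.13). Hes1, a transcriptional target, was likewise higher in both (0.55, SE 0.13, and 0.48, SE 0.12).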

How the data were processed

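Members, gene lists and tests were chosen with earlier results of these data known. Per the submitters' processing notes, base calls came from bcl2fastq 2.20 and alignment from STAR 2.7.3a on GRCm38 (mm10); the counting tool and annotation are not given in the sources used here. The deposited tables hold counts per gene and, beside them, RPKM values by the authors, which were not used. Deposited gene lengths, in bases, gave the levels per kb from TMM-scaled CPM.

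Each experiment was fitted by itself over all its genes with edgeR 4.0.16 in R 4.3.3: filterByExpr by group, TMM scaling, 1 mean per group, and the quasi-likelihood test with Benjamini-Hochberg adjustment over all genes tested; an adjusted p under 0.05 is a call. Enrichment changes are interactions of fraction and genotype, and all fold changes are log2 with a standard error. Genes named are the members, Tnrc6a, Trim71 and Ago2, the 3 most like H19, and of each list and comparison up to 3 called higher and 3 called lower by size; exceptions are the overlapping rows, marker genes and genes repeated from another comparison. The script was tested on simulated counts. Same-numbered samples deviated together, with every correlation over 0.1, between tagged and Trim71KO input (0.206 to 0.299) and IP (0.183 to 0.333) and between tagged input and IP (0.104 to 0.183) of experiment 2, and in none of the 22 other pairs of groups. DESeq2 1.42.0, RLE factors, library size alone, no filter, replicate blocks, only the groups compared and each library left out were alternatives.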

Additional observations from a re-analysis of the deposited data

Results flagged for a closer look

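The change of Trim71KO input against tagged input differed between experiment 1 and experiment 2 for 3 of the 7 members, by the edgeR interaction test of a joint fit in which 22.8% of 18620 genes were called. Igf2 differed by -1.41 (SE 0.36, adjusted p 0.00386), with -1.14 in experiment 1 and 0.26 in experiment 2. Peg10 differed by -0.64 (SE 0.14, adjusted p 0.000952), with -1.04 and -0.40, the same direction in both. Mirg differed by -0.60 (SE 0.19, adjusted p 0.0212), with 0.15 and 0.75.

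Within experiment 2 the inputs of Trim71KO and Ago2KO differed from each other for 4 members by the edgeR fit. Meg3 differed by 0.46 (adjusted p 5.36e-05) and Mirg by 0.70 (adjusted p 4e-05), higher under Trim71KO in 3 of 3 libraries each. Dlk1 differed by -1.89 (adjusted p 3.56e-05) and Peg10 by -0.47 (adjusted p 1.17e-05), lower under Trim71KO in 3 of 3 libraries each. Igf2, at 0.66 (adjusted p 0.0897), was not called there, but was with the replicate block within fraction, with DESeq2 and with only the groups compared.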

How the results depend on the processing

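Of 380 refits of the 30 called member values, 359 kept their direction and their call, 21 lost the call and 0 changed sign. Among all 1309 refits of member values, 19 gained a call; library size alone did so for IP against input of Peg10 in both Trim71KO sets and in Ago2KO (-0.41, -0.28 and -0.32) and of Peg3 in Trim71KO of experiment 2 (-0.42), and only the groups compared for Meg3 in Trim71KO input of experiment 1 (0.24). The loss of Igf2 recovery under Trim71KO in experiment 1 kept its call in all of them, between -1.56 and -1.18 with a library left out and between -1.44 and -1.32 under the other settings. The tag-specific value of H19 lay between 4.15 and 4.58 in experiment 1 and between 2.90 and 3.29 in experiment 2 with a library left out. Library size alone moved the median of all genes by over 0.1, from -0.14 to -0.39 for IP against input in Trim71KO cells of experiment 1, from -0.03 to -0.27 in those of experiment 2, from -0.01 to -0.19 in Ago2KO cells, from -0.03 to -0.24 for the tag-specific contrast of experiment 2, from -0.04 to 0.07 for the Trim71-dependent contrast of experiment 1 and from 0.003 to 0.11 for the Ago2-dependent contrast. It moved the count of all genes called from 295 to 489 for Trim71-dependent enrichment in experiment 2 and from 5571 to 8661 for IP against input in Ago2KO cells. The replicate block within genotype gave 522 calls and DESeq2 548 where 295 stood in the main setting.

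For tagged against untagged input of experiment 1, 2 members were called in place of 1 with library size alone and with DESeq2, and 0 with only the groups compared; with a library left out the count was 0 to 2, being 0 without any 1 untagged input library or tagged input replicate 2 or 3. In experiment 2 it was 2 in place of 1 with a replicate block within fraction and with only the groups compared, and 0 to 1 with a library left out, being 1 without tagged input replicate 3. For Trim71KO against Ago2KO enrichment it was 1 in place of 0 with a replicate block within fraction and with DESeq2, and 0 to 1 with a library left out, Meg3 in each case. For Trim71KO against Ago2KO input it was 5 in place of 4 with a replicate block within fraction, with DESeq2 and with only the groups compared, Igf2 being the one gained (0.66, 0.68 and 0.68). The replicate block changed no other count of members called. The cause of these changes was not tested.

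Values that changed sign were all small and not called. With library size alone, Trim71-dependent enrichment in experiment 1 was 0.0010 for Peg3 and 0.027 for Peg10, Ago2-dependent enrichment 0.095 for Peg10, IP against input within Ago2KO -0.18 for Mirg and -0.14 for Peg3, Trim71KO against Ago2KO input -0.011 for Peg3, and tagged against untagged input in experiment 2 0.012 for Peg10. For that last value, no filter gave 0.0020 and only the groups compared 0.0012. Mirg within Ago2KO was -0.028 with RLE size factors, -0.0034 with no filter, -0.093 with a replicate block within fraction, -0.028 with DESeq2 and -0.012 with only the groups compared.

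With a library left out, Trim71-dependent enrichment ranged from -0.21 to 0.065 for Peg3 and -0.21 to 0.089 for Peg10 in experiment 1, and from -0.032 to 0.35 for H19 and -0.11 to 0.45 for Igf2 in experiment 2. Ago2-dependent enrichment ranged from -0.17 to 0.26 for H19, -0.57 to 0.00042 for Igf2, -0.29 to 0.026 for Peg3 and -0.072 to 0.016 for Peg10. Trim71KO against Ago2KO enrichment ranged from -0.11 to 0.31 for H19 and -0.40 to 0.19 for Dlk1. IP against input ranged from -0.19 to 0.041 for Peg10 within Trim71KO of experiment 1, -0.12 to 0.062 for Peg10 in experiment 2, and, within Ago2KO, -0.069 to 0.10 for Mirg and -0.012 to 0.13 for Peg3. Input changes ranged from -0.024 to 0.30 for Mirg (Trim71KO, experiment 1), -0.065 to 0.12 for Mirg and -0.071 to 0.16 for Dlk1 (Ago2KO), and -0.10 to 0.13 for Peg3 (Trim71KO against Ago2KO). Tagged against untagged input ranged from -0.062 to 0.017 for Meg3 in experiment 1, and in experiment 2 from -0.0030 to 0.29 for Igf2, -0.073 to 0.48 for Dlk1 and -0.042 to 0.030 for Peg10. Depth limits Dlk1 most, with 6 to 142 counts per library.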
